A study of Saccharomyces cerevisiae with 10 samples.

Results

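The genes described here encode the subunits of RNA polymerase I, II and III of Saccharomyces cerevisiae, with a regulator of polymerase I (RRN3) and one of polymerase III (MAF1). The 32 genes were taken by symbol from the array's probe annotation and make up 32 of the 5449 genes tested. Each is measured by 1 probe set (a group of short oligonucleotides for 1 transcript), so no choice among probe sets was needed. They fall into 7 subunits specific to polymerase I, 7 specific to polymerase II, 10 specific to polymerase III, 4 shared by all of them, 2 shared by polymerases I and III, and the 2 regulators.

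Polymerase I makes the large ribosomal RNA precursor, polymerase II makes messenger RNAs, and polymerase III makes transfer RNAs and 5S ribosomal RNA. Each has a catalytic core built from a pair of very large subunits and an alpha-like pair on which the core assembles, and around it a stalk, a zinc-ribbon subunit and a set of small subunits common to all of the enzymes. In growing yeast most transcription is by polymerases I and III, and both are switched down when nutrients or growth fall off. Sua5, the protein whose gene was deleted here, acts in the first step of making threonylcarbamoyladenosine, a modified base next to the anticodon of many transfer RNAs.

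Total RNA of 10 cultures grown in YPD, a rich glucose medium, to mid-log phase was hybridised to 1 Affymetrix yeast array each. The deletion strains were sua5D, haploid MAT a spores dissected from a BY4743 diploid: 3 clones of the 12th restreaking on plates, given as 300 generations after sporulation, and 4 clones of the first restreaking, given as 35 generations. The controls were 3 clones of BY4742, a haploid of the same strain family and of mating type alpha, whose age in generations the labels do not give. The effect of the deletion therefore cannot be told apart from that of mating type or of spore origin in any comparison with wild type. The intensity of LYS2 or MET17, marker genes of this strain family, also differed from wild type on every deletion array (values below). That difference cannot be told apart from the deletion either. Mating type showed on the arrays. STE2, the pheromone receptor of MAT a cells, averaged 1816 ± 86.7 in the 12th restreaking and 1948 ± 172 in the first, against 64.1 ± 6.39 in wild type (SD, n = 3, 4 and 3), and STE3, the pheromone receptor of alpha cells, averaged 127 ± 7.84 and 166 ± 26.5, against 3137 ± 202. SUA5 read 5.22, 4.93 and 2.18 in the 12th restreaking and 0.342, 5.10, 3.17 and 1.20 in the first, against 506, 522 and 532 in wild type. On all deletion arrays this was under the background limit (the percentile 95 of probe sets for another yeast, 10.8 to 17.5 by array), so wild type was at least 45-fold higher than the 12th and at least 40-fold higher than the first restreaking.

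Values are linear intensities that the authors had scaled to a common trimmed mean per array, and differences are on the log2(intensity + 16) scale, tested with limma over all 5449 genes at a Benjamini-Hochberg adjusted p of 0.05. All 32 genes read above the background limit on all 10 arrays. The number of arrays limits the precision. An array reports RNA of a whole culture, so a lower intensity can come from fewer cells that hold the transcript or from less of it per cell, and these cannot be told apart.

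More polymerase genes were lower than higher in the deletion strains, by modest amounts. In the 12th restreaking, 16 of the 32 were lower than in wild type, 5 were higher and 11 did not pass the test. In the first restreaking 17 were lower, 3 were higher and 12 did not pass. No gene changed 2-fold, and the widest difference was the 1.93-fold lower RPC82. In all, 15 of the genes were lower at both restreakings, 3 (RPC40, RPC11 and MAF1) were higher at both, and 0 moved in opposite directions. Over all 5449 genes, 1832 were lower at both, 2052 higher at both and 7 opposite, so opposite moves were rare in general. Both comparisons use the same wild-type arrays.

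These counts stand against a genome in which most genes differed between the strains. In the 12th restreaking 77.8% of all genes were called, 40.9% higher and 36.9% lower, and 65.6% of the polymerase genes were, 15.6% higher and 50% lower. In the first restreaking 79.0% of all genes were called, 41.5% higher and 37.5% lower, and 62.5% of the polymerase genes were, 9.38% higher and 53.1% lower. A call is thus the common outcome here, and the share of polymerase genes called was below that of all genes, while the share called lower was above it. The median difference over the polymerase genes was -0.17 in the 12th and -0.15 in the first restreaking, beside 0.032 over all genes in both. The arrays of the 2 groups did not overlap for 23 genes in the 12th restreaking, 6 higher and 17 lower. Of all genes 79.8% did not overlap, 2285 higher and 2062 lower. In the first restreaking 17 polymerase genes did not overlap, 2 higher and 15 lower. Of all genes 76.7% did not, 2202 higher and 1979 lower.

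The scaling between arrays bears on the calls in both directions. The median over all probe sets, unnamed ones included, was 89.7 to 104 on the deletion arrays and 60.6 to 64 on the wild-type arrays, and the part of this in the results was not tested. With the medians of the tested genes set equal on all arrays, the median difference over all genes became -0.079 in the 12th and -0.077 in the first restreaking. The polymerase genes called were then 1 higher and 19 lower in the 12th, and 1 higher and 23 lower in the first, and the gene left higher was MAF1. Over all genes the calls were 1879 higher and 2384 lower, and 1958 higher and 2475 lower. Under quantile normalization the polymerase genes called were 5 higher and 14 lower in the 12th, and 4 higher and 16 lower in the first. Over all genes they were 1789 higher and 2293 lower, and 1807 higher and 2402 lower. Calls that held in all 23 alternatives were those of RPA49, RPB2, RPB3, RPB7, RPB11, RPO31, RPC82, RRN3 and MAF1 in both restreakings, with RPA34, RPB8, RPC37 and RPC31 in the 12th and RPA135 in the first.

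**Figure D1:**
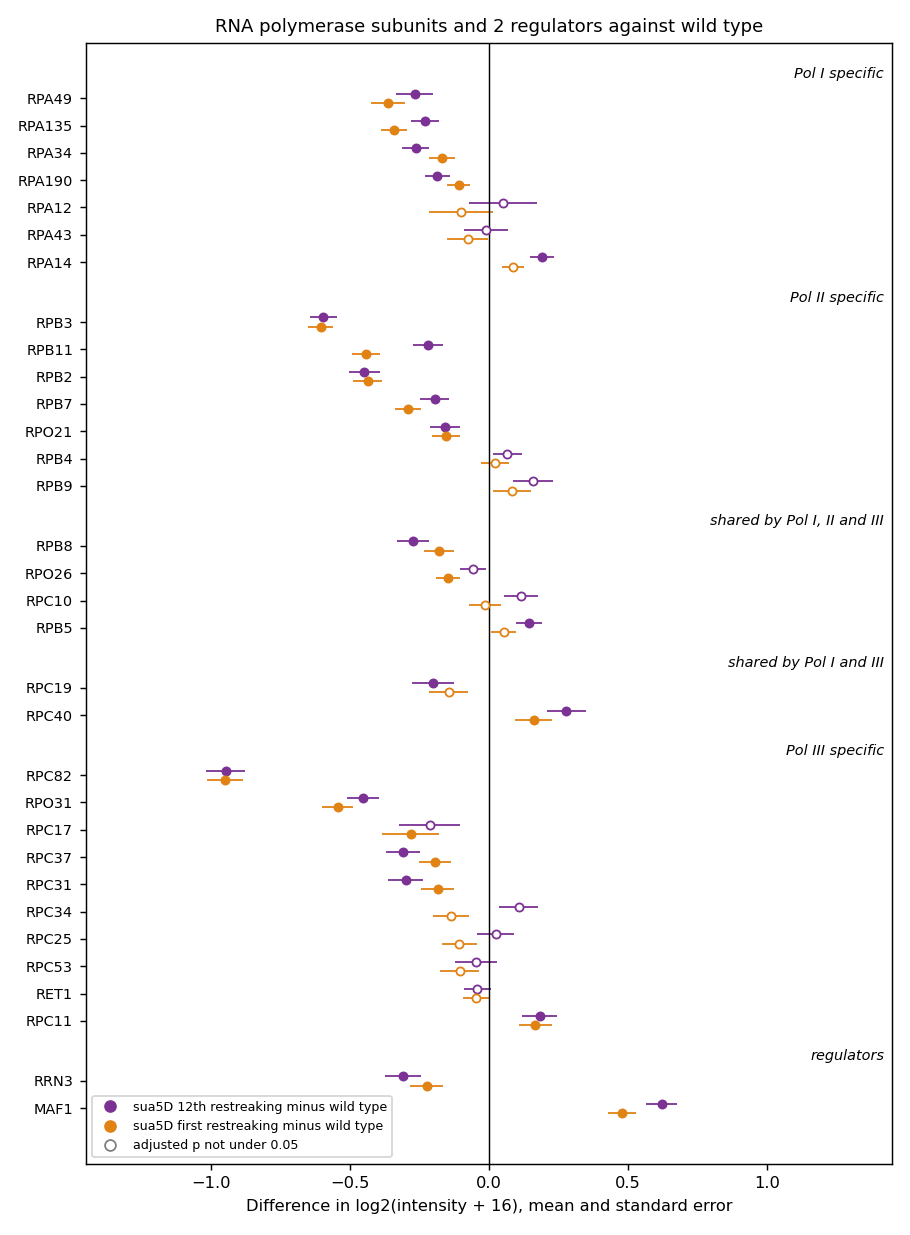
Difference from wild type of the 32 genes on the log2(intensity + 16) scale, ordered by polymerase; points are limma estimates, bars standard errors, filled points passed an adjusted p of 0.05. Most filled points lie left of 0, RPC82 farthest at -0.95 in both restreakings, and MAF1 lies farthest right at 0.62 in the 12th and 0.48 in the first.

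Of the 7 subunits specific to polymerase I, 4 were lower at both restreakings: the catalytic subunit RPA190, the second-largest subunit RPA135, and RPA49 and RPA34, which pair in a module that helps initiation and elongation. RPA49 (YNL248C, chromosome XIV) read 1531, 1319 and 1301 in the 12th restreaking and 1207, 1246, 1361 and 1355 in the first, against 1661, 1635 and 1701 in wild type. All deletion arrays lay below all wild-type arrays. The difference was -0.27 ± 0.065 in the 12th (standard error, adjusted p = 0.00187) and -0.36 ± 0.061 in the first restreaking (adjusted p = 8.38e-05). RPA135 (YPR010C, chromosome XVI) read 4416, 4318 and 4445 in the 12th restreaking and 3696, 4187, 4209 and 4205 in the first, against 5145, 5331 and 5006 in wild type. Again the groups were apart from wild type on every array, and replicate 1 of the first restreaking lay well below the other clones. RPA135 was 1.17-fold lower in the 12th (adjusted p = 0.000695) and 1.27-fold lower in the first restreaking (adjusted p = 1.06e-05).

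RPA34 stood at -0.26 in the 12th and -0.17 in the first restreaking, and RPA190 at -0.19 and -0.11. RPA190 averaged 3602 ± 155 in the 12th and 3796 ± 152 in the first restreaking, against 4098 ± 80.9 in wild type. RPA14, a stalk subunit, went the other way: it averaged 1919 ± 5.04 in the 12th restreaking, against 1681 ± 64.3 in wild type, a difference of 0.19 (adjusted p = 0.00105), and the first restreaking at 1786 ± 48.5 did not pass (0.086, adjusted p = 0.0615). RPA43, the other stalk subunit, and RPA12, the zinc-ribbon subunit that takes part in transcript cleavage, did not pass at either time. Their 95% intervals in the first restreaking were -0.24 to 0.084 for RPA43 and -0.35 to 0.15 for RPA12, and the RPA12 interval reaches the size of the RPA135 difference. RPA43 passed as lower in the first restreaking with array medians set equal (-0.19, adjusted p = 0.0293) and under quantile normalization (-0.18, adjusted p = 0.0466). The RPA190 call in the first restreaking was lost without replicate 1 or 4 of the first restreaking and without replicate 2 or 3 of wild type (adjusted p 0.0558 to 0.0744), and its difference turned to 0.037 under quantile normalization. RPA14 passed in the first restreaking without wild-type replicate 3 (adjusted p = 0.0435) and under quantile normalization (0.00706), and did not pass in the 12th with array medians set equal (adjusted p = 0.129); quantile normalization ended the calls of RPA190 and RPA135 in the 12th (adjusted p = 0.42 and 0.456) and of RPA34 in the first (adjusted p = 0.166).

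Of the 7 subunits specific to polymerase II, 5 were lower at both restreakings and 0 were higher. They were the catalytic subunit RPO21, the second-largest subunit RPB2, the alpha-like pair RPB3 and RPB11, and the stalk subunit RPB7. The median difference over the 7 was -0.20 in the 12th and -0.29 in the first restreaking. RPB3 (YIL021W, chromosome IX) read 943, 908 and 878 in the 12th restreaking and 937, 901, 903 and 875 in the first, against 1343, 1432 and 1375 in wild type. The deletion arrays lay close together and far below every wild-type array. RPB3 was 1.51-fold lower in the 12th (adjusted p = 6.24e-08) and 1.52-fold lower in the first restreaking (adjusted p = 2.24e-08).

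RPB11 (YOL005C, chromosome XV), the partner of RPB3, read 564, 576 and 604 in the 12th restreaking and 493, 478, 512 and 501 in the first, against 702, 688 and 649 in wild type. Here the 3 groups lay in order with no overlap, the 12th restreaking between the other two. The difference from wild type was -0.22 ± 0.054 in the 12th (adjusted p = 0.00203) and -0.44 ± 0.051 in the first restreaking (adjusted p = 1.94e-06). RPB2 averaged 2209 ± 95.5 in the 12th and 2226 ± 87.1 in the first restreaking, against 3022 ± 218 in wild type, which is 1.36-fold and 1.35-fold lower (adjusted p = 5.1e-06 and 2.95e-06). RPB7 was lower by 0.20 and 0.29 on the log2 scale, and RPO21 by 0.16 and 0.15, with adjusted p = 0.0144 in the 12th and 0.0113 in the first. RPB7's stalk partner RPB4 and the zinc-ribbon subunit RPB9 did not pass at either time, with RPB4 at 0.066 and 0.022 and RPB9 at 0.16 and 0.081. Yeast can grow without RPB4 or RPB9, while the other subunits of this class are essential. The RPO21 call in the 12th was lost without 12th-restreaking replicate 3 (adjusted p = 0.0618) or wild-type replicate 2 (0.051), and quantile normalization ended it in both comparisons (0.0858 and 0.0826). RPB9 passed in the 12th, as higher, without replicate 2 of the 12th (0.0345) or replicate 3 of the first restreaking (0.0429).

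**Figure D2:**
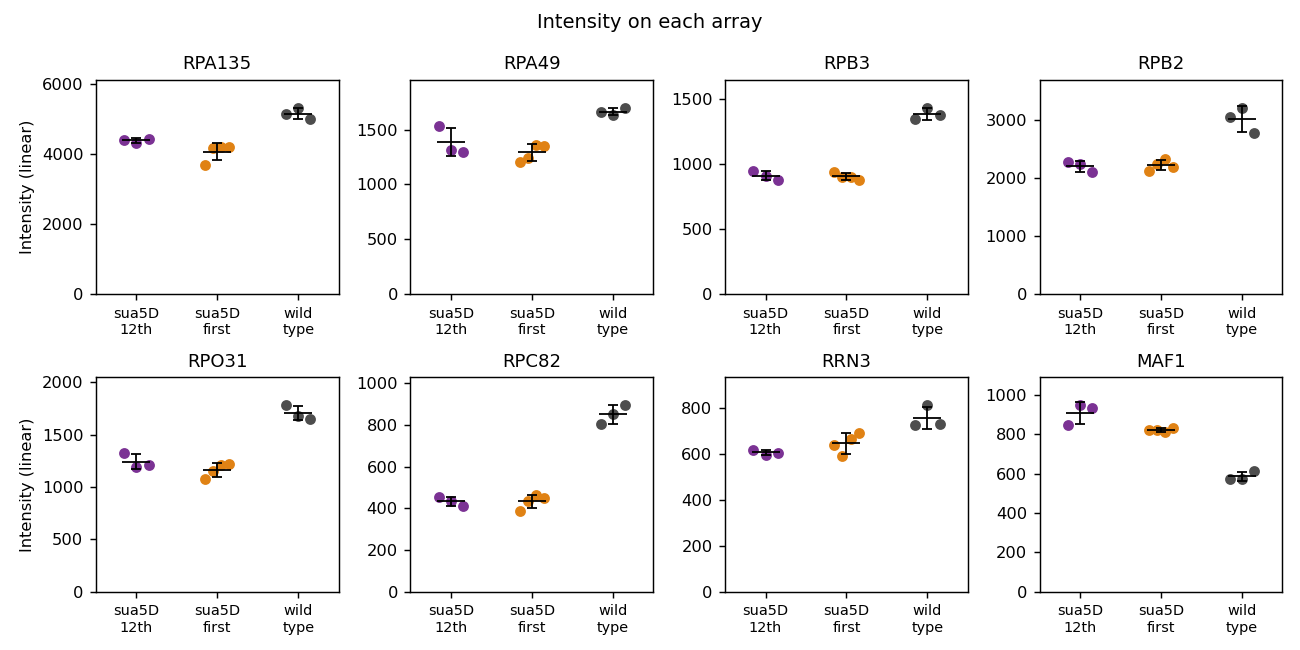
Linear intensity of 8 polymerase genes on each array, with the group mean and SD as bars, for the 12th restreaking (n = 3), the first restreaking (n = 4) and wild type (n = 3). RPB3, RPB2, RPO31 and RPC82 read lower on every deletion array than on any wild-type array, RPA135, RPA49 and RRN3 do so by less, and MAF1 reads higher on every deletion array.

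Of the 10 subunits specific to polymerase III, 4 were lower at both restreakings (the catalytic subunit RPO31, RPC82, RPC37 and RPC31), RPC17 passed as lower in the first restreaking and not in the 12th, and RPC11 was higher at both. RPC82 (YPR190C, chromosome XVI), a member of the trimer that recruits the enzyme to its promoters, had the widest difference of the 32 genes. It read 453, 435 and 412 in the 12th restreaking and 387, 435, 464 and 447 in the first, against 805, 854 and 893 in wild type. No deletion array came near the lowest wild-type array. The difference was -0.95 ± 0.070 in the 12th (adjusted p = 2.45e-08) and -0.95 ± 0.065 in the first restreaking (adjusted p = 9.83e-09).

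RPO31 (YOR116C, chromosome XV) read 1326, 1194 and 1206 in the 12th restreaking and 1077, 1154, 1210 and 1218 in the first, against 1780, 1682 and 1654 in wild type. All deletion arrays were below all wild-type arrays. It was 1.37-fold lower in the 12th (adjusted p = 7.27e-06) and 1.46-fold lower in the first restreaking (adjusted p = 5.09e-07). The other members of the RPC82 trimer were uneven. RPC31 averaged 574 ± 17.2 in the 12th and 624 ± 47.8 in the first restreaking, against 711 ± 21.6 in wild type, and passed at both times (-0.30 and -0.19). RPC34 passed at neither time: the 95% interval was -0.045 to 0.26 in the 12th and -0.28 to 0.005 in the first restreaking. In the pair that works in elongation and termination, RPC37 was lower by 0.31 in the 12th and 0.20 in the first restreaking (adjusted p = 0.000315 and 0.0059), and its partner RPC53 was at -0.047 and -0.11 without passing.

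RET1, the second-largest subunit, stood at -0.043 in the 12th and -0.047 in the first restreaking, with 95% intervals of -0.15 to 0.062 and -0.14 to 0.051. It averaged 2408 ± 52.4 and 2403 ± 129, against 2481 ± 74.9 in wild type, so the groups overlapped. In the stalk, RPC17 was at -0.21 in the 12th (adjusted p = 0.0895) and -0.28 in the first restreaking (adjusted p = 0.0212), and RPC25 at 0.023 and -0.11 without passing. RPC11, which acts in transcript cleavage and in reinitiation, averaged 1080 ± 14.0 in the 12th and 1071 ± 90.3 in the first restreaking, against 951 ± 36.9 in wild type (0.18 and 0.17, adjusted p = 0.0179 and 0.0203).

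Several of the narrow polymerase III calls rested on single arrays. The RPC11 call was lost in the 12th without 12th-restreaking replicate 1 (adjusted p = 0.0506) or wild-type replicate 1 (0.0706), and in the first without first-restreaking replicate 3 (0.0605) or wild-type replicate 1 (0.0851). Setting array medians equal ended it too, at 0.067 in the 12th and 0.052 in the first, as did quantile normalization at 0.13 and 0.11. RPC17 lost its call in the first restreaking without first-restreaking replicate 2 (0.0638) or wild-type replicate 1 (0.0881) or 3 (0.0577), and passed in the 12th when first-restreaking replicate 2 was left out of the common fit (0.0491) and under both other scalings (0.0128 and 0.00224). In the first restreaking, RPC53 passed as lower without wild-type replicate 1 (0.0221), RPC34 without first-restreaking replicate 4 (0.0128) and RPC25 without wild-type replicate 2 (0.021). With array medians set equal, 6 polymerase III subunits were lower in the 12th and 9 in the first restreaking, RET1 among them at -0.16 in both, and 0 were higher. Of all 5449 genes, that scaling called 2384 lower and 1879 higher in the 12th, and 2475 lower and 1958 higher in the first.

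Among the 32 genes are 4 for subunits of all the enzymes, without RPB10, which is described below. Of these, RPB8 was lower at both restreakings, RPO26 passed as lower in the first and RPB5 as higher in the 12th. RPB8 (YOR224C, chromosome XV) read 2913, 2594 and 2626 in the 12th restreaking and 2793, 2813, 2981 and 2971 in the first, against 3317, 3499 and 3030 in wild type. The deletion and wild-type arrays did not overlap. The highest first-restreaking array was just below the lowest wild-type one. The difference was -0.27 in the 12th (adjusted p = 0.000658) and -0.18 in the first restreaking (adjusted p = 0.00737). RPO26 (YPR187W, chromosome XVI) read 2059, 2065 and 1959 in the 12th restreaking and 1877, 1828, 2027 and 1890 in the first, against 2090, 2163 and 2079 in wild type. It passed in the first restreaking (-0.15, adjusted p = 0.0062) and not in the 12th (-0.057, 95% interval -0.16 to 0.042). RPB5 averaged 2092 ± 52.6 in the 12th and 1964 ± 99.4 in the first restreaking, against 1891 ± 37.8 in wild type, and passed in the 12th (0.14, adjusted p = 0.0132). RPC10 passed at neither time, at 0.12 and -0.015.

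Quantile normalization ended the first-restreaking calls of RPB8 and RPO26 (adjusted p = 0.279 and 0.282), while RPO26 passed as lower in the 12th with array medians set equal (-0.17, adjusted p = 0.00442). The RPB5 call in the 12th was lost without 12th-restreaking replicate 1 (0.0532) and with array medians set equal (0.605), and RPC10 passed in the 12th, as higher, without wild-type replicate 2 (0.0062) and under quantile normalization (0.04), as did RPB5 in the first (0.0254).

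RPC40 and RPC19, the alpha-like pair that polymerases I and III have in common, stood on opposite sides of wild type. RPC40 (YPR110C, chromosome XVI) read 2824, 2524 and 2583 in the 12th restreaking and 2146, 2650, 2510 and 2456 in the first, against 2142, 2065 and 2329 in wild type. The 12th restreaking lay above wild type on every array, while replicate 1 of the first restreaking fell among the wild-type values. The difference was 0.28 ± 0.072 in the 12th (adjusted p = 0.00283) and 0.16 ± 0.067 in the first restreaking (adjusted p = 0.0411). RPC19 (YNL113W, chromosome XIV) read 1208, 1196 and 1140 in the 12th restreaking and 1153, 1104, 1298 and 1377 in the first, against 1383, 1264 and 1437 in wild type. It passed in the 12th (-0.20, adjusted p = 0.0263) and not in the first restreaking (-0.14, adjusted p = 0.0758), where replicates 3 and 4 overlapped wild type.

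Neither call was firm. The first-restreaking call of RPC40 was lost without 12th-restreaking replicate 3, first-restreaking replicate 2, 3 or 4, or wild-type replicate 1 or 2 (adjusted p 0.0503 to 0.155), and with array medians set equal RPC40 passed at neither time (0.16 in the 12th, adjusted p = 0.0657, and 0.045 in the first, adjusted p = 0.565). The 12th-restreaking call of RPC19 was lost without 12th-restreaking replicate 3 (0.085) or wild-type replicate 1 (0.0705) or 3 (0.103), and under quantile normalization (0.0631), and RPC19 passed in the first without first-restreaking replicate 4 (0.0141) or wild-type replicate 2 (0.0335), and with array medians set equal (0.0035).

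MAF1, the conserved repressor of polymerase III that acts when nutrients are short, was the most increased of the 32 genes, and RRN3, the factor that makes polymerase I competent to start transcription, was lower. MAF1 (YDR005C, chromosome IV) read 847, 948 and 937 in the 12th restreaking and 823, 824, 810 and 832 in the first, against 574, 572 and 614 in wild type. Every deletion array was above every wild-type array. MAF1 was 1.54-fold higher in the 12th (adjusted p = 1.41e-07) and 1.39-fold higher in the first restreaking (adjusted p = 9.14e-07). RRN3 (YKL125W, chromosome XI) read 617, 595 and 604 in the 12th restreaking and 636, 588, 662 and 691 in the first, against 725, 810 and 730 in wild type. RRN3 was 1.24-fold lower in the 12th (adjusted p = 0.00057) and 1.17-fold lower in the first restreaking (adjusted p = 0.00359). The activity of Maf1 and Rrn3 is known to be set largely by phosphorylation of the proteins, which these arrays do not measure.

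Subunits in the same position of the 3 enzymes did not share 1 value. Among the catalytic subunits, RPO31 was at -0.45 in the 12th and -0.55 in the first restreaking, RPO21 at -0.16 and -0.15, and RPA190 at -0.19 and -0.11. Among the second-largest subunits, RPB2 was at -0.45 and -0.44, RPA135 at -0.23 and -0.34, and RET1 did not pass. In the alpha-like position RPB3 was lower and its counterpart RPC40 was higher, and in the small alpha-like position RPB11 and RPC19 both had negative differences. The zinc-ribbon subunits RPA12, RPB9 and RPC11 included no gene that was lower. No test was made between genes.

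The comparison of the 12th with the first restreaking, between deletion strains of the same mating type, showed few differences. The groups were not alike in the markers LYS2 and MET17. Both read low on all 12th-restreaking arrays, and high on replicates 3 and 4 of the first restreaking. The part of this in the comparison was not tested. Of the 32 genes 2 were higher in the 12th, 0 were lower and 30 did not pass, so 6.25% were called, beside 15.9% of all genes, 6.83% higher and 9.07% lower. The median difference was 0.067 over the polymerase genes and 0.004 over all genes. Over all 5449 genes 28.9% had arrays that did not overlap, 732 genes higher and 842 lower in the 12th. Of the 32 polymerase genes 8 did not overlap, all higher in the 12th. These were RPA135, RPA14, RPB11, RPB5, RPC10, RPC34, RPC25 and MAF1.

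The called genes were RPB11, at 0.22 ± 0.051 (adjusted p = 0.013), and RPC34, at 0.24 ± 0.065 (adjusted p = 0.0266). RPC34 (YNR003C, chromosome XIV) read 794, 861 and 851 in the 12th restreaking, against 631, 684, 725 and 783 in the first, and 767, 757 and 801 in wild type. The lowest 12th-restreaking array was only just above the highest first-restreaking one. Neither call was kept in every alternative. RPB11 was lost without 12th-restreaking replicate 3 (adjusted p = 0.0748), RPC34 without 12th-restreaking replicate 2 (0.101) or 3 (0.1) or first-restreaking replicate 2 (0.0609), and both when first-restreaking clones 1 and 2, and 3 and 4, were averaged (0.0541 for RPB11 and 0.0576 for RPC34). With replicates 3 and 4 as the only first-restreaking arrays both were lost (0.0606 for RPB11, and 0.14 for RPC34 at 0.15), and RPC31 passed as lower in the 12th (-0.21, adjusted p = 0.0373). MAF1 passed, at 0.19, without 12th-restreaking replicate 1 (0.0339), and stood at 0.14 (0.0734) with it. The genes that passed against wild type at one time and not at the other (RPA14, RPO26, RPB5, RPC19 and RPC17) did not pass between the times, at -0.056 to 0.10. For RPC82, whose difference from wild type was widest, the 12th minus the first restreaking was 0.002, with a 95% interval of -0.14 to 0.14.

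The first-restreaking clones fell into pairs for these genes. The study's description calls the clones independent, but replicates 1 and 2 resembled each other across the genome, as did 3 and 4: the intensity of LYS2, of lysine synthesis, was 15.6 and 9.34 for replicates 1 and 2 but 2953 and 2890 for 3 and 4. That of MET17, of sulfur assimilation, was 10 and 15.3 for the first pair but 4898 and 4662 for the second. Both genes are auxotrophic markers of this strain family. On the 12th-restreaking arrays LYS2 read 10.8 to 53.7 and MET17 8.09 to 96.9, and on the wild-type arrays LYS2 read 10.9 to 17.4 and MET17 4176 to 4381. Replicates 1 and 2 both read lower than both of 3 and 4 for 22 of the 32 polymerase genes (68.8%), and higher for 0. Over all genes the shares were 25.1% lower and 20.9% higher. The median difference of replicates 1 and 2 from 3 and 4 was -0.11 over the polymerase genes and -0.009 over all genes. These pairs were defined from the data, and the part of the marker genes or of any shared origin of the clones in this was not tested. The p-values treat all clones as independent.

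The pattern was most frequent among polymerase III subunits, 9 of 10, with RPC11, RPC34 and RPC31 among them. RPA12 had the clearest split: replicates 1 and 2 had intensities of 519 and 519, while 3 and 4 had 707 and 734. The 12th restreaking stood at 629, 726 and 691, against 668, 600 and 709 in wild type. The difference of RPA12 from wild type was -0.33 with replicates 1 and 2 alone, and -0.10 with all 4 (adjusted p = 0.424). The pairs and this gene were picked from these same values, so the value for replicates 1 and 2 is a description and not a test. The median over the 32 genes, relative to the wild-type mean, was -0.23 and -0.21 on arrays 1 and 2 of the first restreaking, -0.068 and -0.11 on arrays 3 and 4, -0.12 to -0.15 on the 12th-restreaking arrays and -0.004 to 0.020 on the wild-type arrays. The count called in the first restreaking was 22 with replicates 1 and 2 alone and 14 with 3 and 4 alone, and the genes lost with 3 and 4 alone were RPA190, RPO21, RPB8, RPO26, RPC37, RPC31 and RPC17, while RPB5 passed as higher. Within groups, the median SD on the log2 scale over the polymerase genes was 0.056 in the 12th, 0.079 in the first restreaking and 0.055 in wild type, beside 0.058, 0.077 and 0.075 over all genes.

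**Figure D3:**
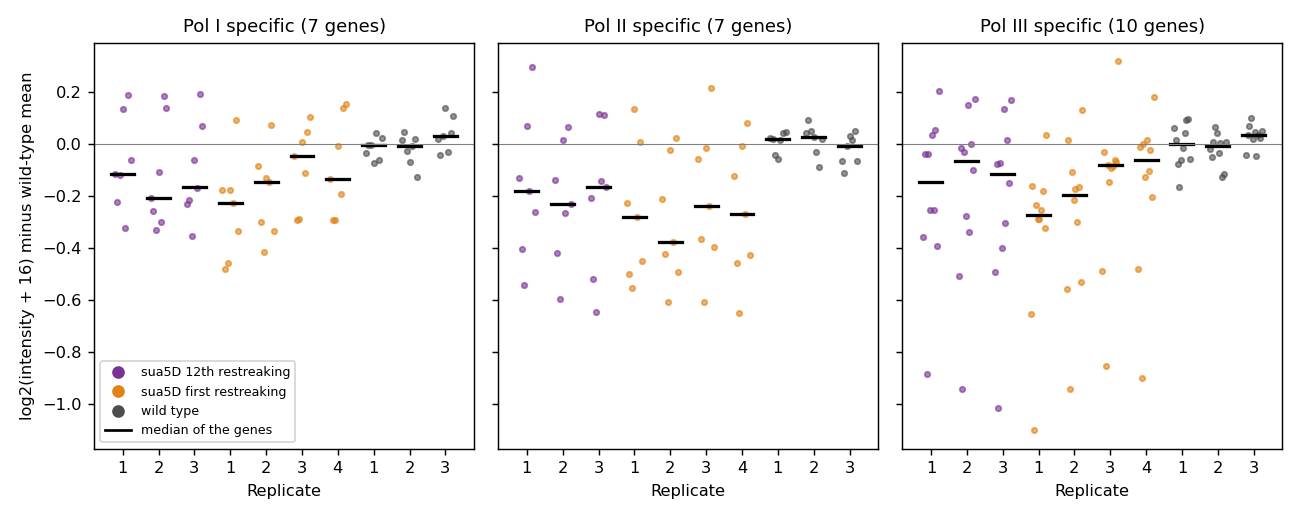
Difference of each subunit specific to polymerase I, II or III from its wild-type mean on the log2(intensity + 16) scale, by array; points are genes and black bars their median. The medians of the deletion arrays lie below 0 in all 3 panels, and in the polymerase III panel arrays 1 and 2 of the first restreaking (-0.27 and -0.20) lie below arrays 3 and 4 (-0.082 and -0.062).

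A further 50 genes were RPB10 and lists of initiation, elongation, assembly and regulatory factors that work with the polymerases. Of these, 18 were higher (36%) and 13 lower (26%) than wild type in the 12th restreaking, beside 40.9% and 36.9% of all genes. In the first, 22 were higher (44%) and 12 lower (24%), beside 41.5% and 37.5%. Which direction was more frequent turned with the scaling. With array medians set equal 13 were higher and 22 lower in the 12th, and 13 higher and 20 lower in the first. Under quantile normalization 16 were higher and 21 lower in the 12th, and 16 higher and 18 lower in the first. RPB10, a small subunit of all the enzymes that is not among the 32, averaged 1794 ± 45.2 in the 12th and 1607 ± 144 in the first restreaking, against 1112 ± 148 in wild type (0.69 and 0.53, adjusted p = 6.16e-06 and 3.91e-05). SPT15, the TATA-binding protein that all 3 systems use, passed at neither time (0.082 and 0.13), though it passed in the first, as higher, without 12th-restreaking replicate 1 (0.0297) and at both times under quantile normalization (0.0147 in the 12th and 0.00213 in the first).

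Among the assembly and import factors 2 genes were over 2-fold higher. RBA50, needed for assembly of polymerase II, read 3204, 2883 and 2848 in the 12th restreaking and 2971, 2963, 2998 and 3051 in the first, against 1288, 1175 and 1380 in wild type. That is 2.31-fold higher in the 12th (adjusted p = 3.62e-10) and 2.33-fold higher in the first (adjusted p = 1.3e-10), with no overlap. IWR1, which takes part in import of polymerase II into the nucleus, was 2.12-fold and 2.02-fold higher. Of the 8 factors on this list 3 were higher and 1 lower in the 12th, and 6 higher and 1 lower in the first restreaking. Those higher at both times were RBA50, IWR1 and RTR1. The others higher in the first, NPA3, GPN2 and GPN3, were named after their values were seen, and array medians set equal ended all 3 calls (adjusted p = 0.64, 0.405 and 0.243), leaving 3 higher and 2 lower in the first, and 3 higher and 3 lower in the 12th. GPN2 also lost its first-restreaking call without wild-type replicate 3 (0.0884), where it passed as lower in the 12th (0.0305), and GPN3 lost it without first-restreaking replicate 3 or 4 or wild-type replicate 2 or 3 (0.0858 to 0.108). The gene lower in the reported fit, also named after its value was seen, was BUD27, a prefoldin-like factor in the assembly of all 3 enzymes (-0.67 and -0.77, adjusted p = 2.53e-07 and 2.41e-08).

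Of 8 polymerase I factors 3 were higher and 3 lower at each time. RRN11, of the core factor, averaged 186 ± 18.0 in the 12th and 199 ± 18.5 in the first restreaking, against 420 ± 8.71 in wild type (2.17-fold and 2.04-fold lower, adjusted p = 3.75e-08 and 3.65e-08), and RRN9, of the upstream activating factor, was higher (0.51 and 0.54). The other genes in these counts, named after their values were seen, were RRN10, higher at both times, RRN6 and HMO1, lower at both, RRN7, higher in the 12th, and RRN5, higher in the first. The HMO1 call in the first was lost without wild-type replicate 1 (adjusted p = 0.0593), and the RRN7 call in the 12th without 12th-restreaking replicate 1 (0.0628) or wild-type replicate 1 (0.0889). Under quantile normalization RRN7 turned to -0.11 in the 12th and passed as lower in the first (-0.26, 0.0059), where RRN5 lost its call (0.229). The polymerase I counts were then 2 higher and 4 lower at each time. With array medians set equal they were 2 higher and 3 lower in the 12th, and 3 higher and 4 lower in the first. Of 17 genes listed as general or elongation factors of polymerase II, 8 were higher at each time, and 4 were lower in the 12th and 3 in the first restreaking. SSL1 and TFB2, subunits of TFIIH, were among the higher ones, at 0.59 and 0.67 for SSL1 and 0.66 and 0.64 for TFB2. The lower ones, again named after their values were seen, were TFG1 and TFG2 of TFIIF and RAD3 of TFIIH at both times, and TFA1 of TFIIE in the 12th. With array medians set equal the polymerase II counts turned to 5 higher and 7 lower in the 12th, and 5 higher and 6 lower in the first. Of 8 polymerase III factors 4 were lower and 1 higher at each time, with TFC4 (-0.51 and -0.63) and TFC6 (-0.60 and -0.59), both subunits of TFIIIC, the lower ones with the smallest adjusted p in the first, beside TFC1 and TFC7; the TFC1 call in the 12th was lost without 12th-restreaking replicate 3 or wild-type replicate 1 or 3 (0.0524 to 0.0848). The 1 called higher, named after its value was seen, was BDP1 of TFIIIB (0.18 in each), whose call was lost in both comparisons without wild-type replicate 2 or 3, and in the 12th also without 12th-restreaking replicate 1 or 2 (adjusted p 0.0633 to 0.1). Array medians set equal ended the BDP1 call in the 12th and the first (0.072 and 0.064), as did quantile normalization (-0.002 and -0.02). Under each of these scalings 0 of the 8 polymerase III factors were higher and 5 lower at each time.

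Of 7 regulators of polymerase III and ribosome synthesis, 2 were higher and 1 lower in the 12th, and 3 higher and 1 lower in the first restreaking. KNS1, a kinase that acts on polymerase III in stress, read 960, 987 and 974 in the 12th restreaking and 1044, 1088, 998 and 1035 in the first, against 449, 383 and 456 in wild type. It was 2.23-fold higher in the 12th (adjusted p = 1.2e-09) and 2.38-fold higher in the first restreaking (adjusted p = 2.27e-10), with no overlap. CKB1, a regulatory subunit of casein kinase 2, was lower in the first (-0.34, adjusted p = 6.93e-05) and did not pass in the 12th (-0.13, adjusted p = 0.0515). In the 12th it passed as lower without first-restreaking replicate 1 or 2 or wild-type replicate 3 (0.0358 to 0.0395). CKB1 also passed there with array medians set equal (-0.25, adjusted p = 0.00254), under quantile normalization (-0.19, 0.0152) and with first-restreaking clones averaged in pairs (0.0204). The others, named after their values were seen, were CKA2, higher at both times, CKA1, higher in the first, and SCH9, lower in the 12th. Array medians set equal ended the first-restreaking calls of CKA1 and CKA2 (adjusted p = 0.116 and 0.217). The regulator counts with that scaling turned to 2 higher and 4 lower in the 12th, and 1 higher and 3 lower in the first. Under quantile normalization they were 2 higher and 2 lower in the 12th, and 3 higher and 1 lower in the first.

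Between the 12th and the first restreaking, 2 of the 50 genes were higher (TFG2 and CKB1) and 5 lower (RRN5, TFA1, SSL2, GPN2 and CKA1), so 14% were called, beside 15.9% of all genes. Of these, TFA1 (-0.36, adjusted p = 0.00267) and CKA1 (-0.28, adjusted p = 0.00354) kept their call in all 23 alternatives. TFG2, CKB1, RRN5 and SSL2 lost it without any 1 of the 12th-restreaking arrays and without some of the first-restreaking ones (adjusted p 0.052 to 0.131), and GPN2 lost it without 12th-restreaking replicate 3 (0.0554).

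**Figure D4:**
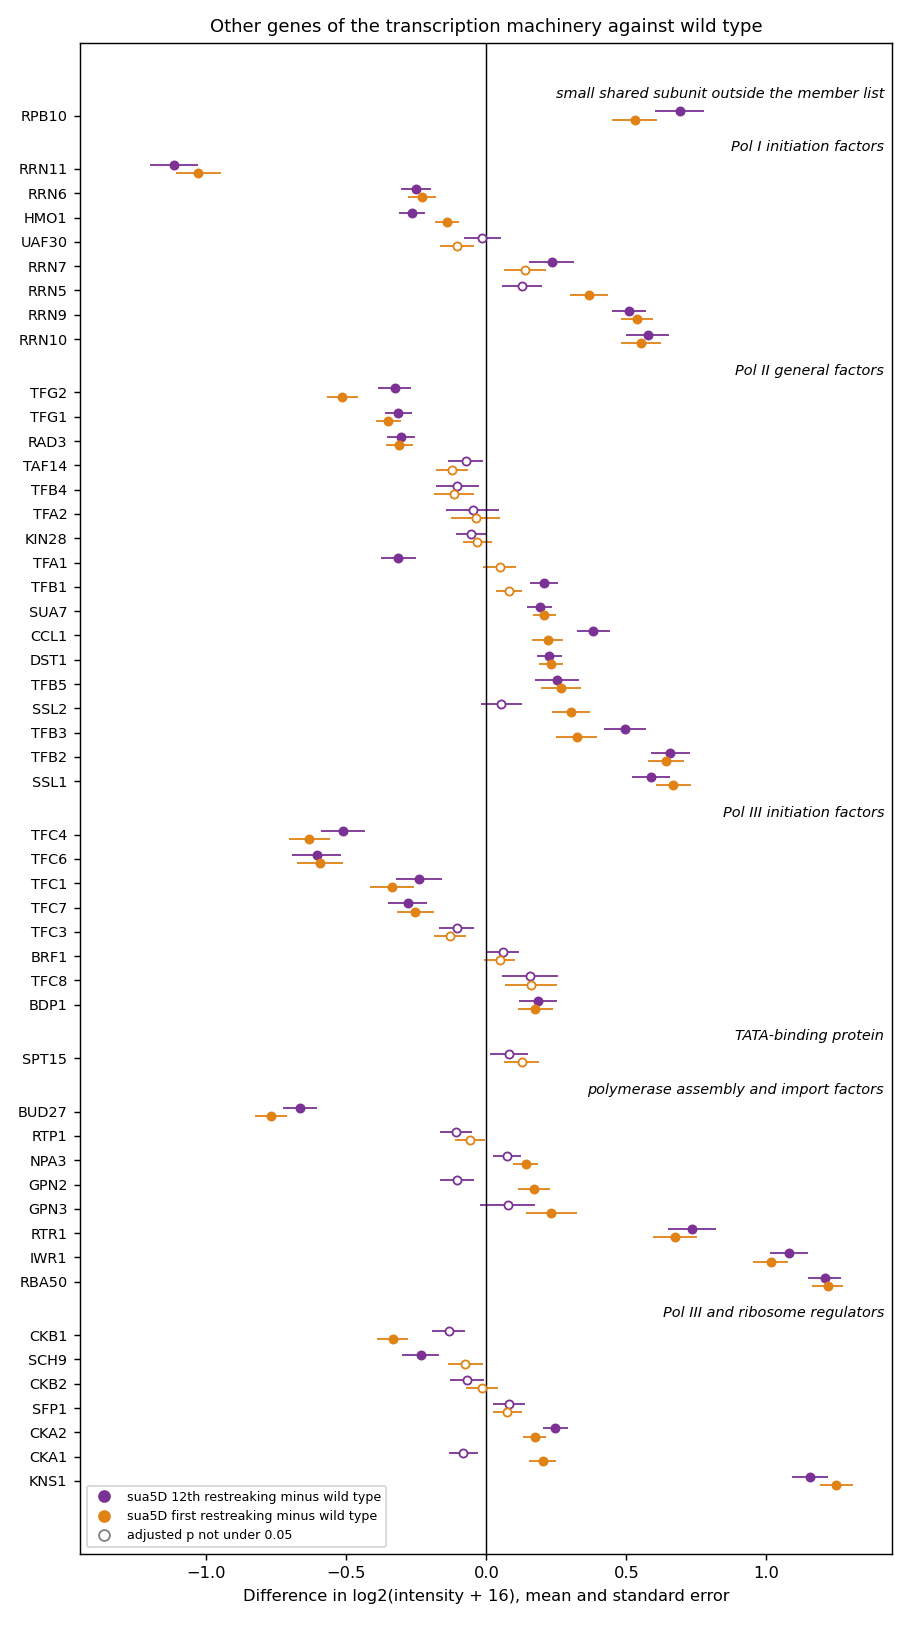
Difference from wild type of RPB10 and the factors that work with the polymerases, 50 genes in all, on the log2(intensity + 16) scale. Points are limma estimates, bars are standard errors, and filled points passed an adjusted p of 0.05. RBA50, IWR1 and KNS1 lie past 1 on the right, RRN11 lies past -1 on the left, and each list of initiation factors holds filled points on both sides of 0 at the scaling of the deposited values.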

How the data were processed

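The deposited values are linear intensities, 1 per probe set and array. With the lowest and highest 2% of probe sets dropped, every array averaged 499.8 to 499.9, so the authors had scaled the arrays to one target. Which software they used was not given in the sources used here. Of 10928 probe sets, 5498 belong to S. cerevisiae genes in the platform annotation and the R64 gene table, and the brightest of each of 5449 genes was kept. Locus tags and chromosomes come from that table.

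Intensities were taken as log2(intensity + 16). Fold changes on that scale understate changes of dim genes. Differences were fitted with limma 3.58.1 in R 4.3.3, 1 mean per group over all 10 arrays, with moderated variances and an intensity trend, and p-values (two-sided) were adjusted over 5449 genes by Benjamini-Hochberg at 0.05. The fit was tested on simulated data.

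The genes, their classes and the lists were chosen with earlier results of these data known. Every array's value was to be given for the 2 genes of each class with the widest called change in the first restreaking, the 2 with the widest change in the 12th against the first, RRN3, MAF1 and SUA5; of each list of other genes, the 2 with the smallest adjusted p were to be named. Replicate numbers are not said to pair clones, and the deviations of same-numbered arrays of different groups correlated at -0.271 to 0.0797, so no block was fitted in the reported tests. Promoter motifs were not searched.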

Additional observations from a re-analysis of the deposited data

Results flagged for a closer look

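RPA135 and RPB4 each had 1 first-restreaking array apart from the other 3. RPA135 read 3696 in replicate 1, below 4187, 4209 and 4205, and that gap was 0.958 of the group's range. RPB4 read 1296 in replicate 1, above 1160, 1165 and 1171, a gap of 0.92 of the range. Both gaps pass Dixon's 95% limit for 4 samples, which chance passes in about 1 group in 20, and 32 genes were examined. Without replicate 1 the RPA135 call against wild type was kept and RPB4 was still not called.

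The difference between the restreakings itself passed the test for RPB11, at 0.22 on the log2 scale (adjusted p = 0.013), and for RPC34, at 0.24 (adjusted p = 0.0266). All 3 arrays of the 12th restreaking were above all 4 of the first for both genes, which was also so for RPA135, RPA14, RPB5, RPC10, RPC25 and MAF1 without a call. Of all 5449 genes, 732 were above in this way and 842 were below.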

How the results depend on the processing

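Over 23 alternatives the number of polymerase genes called was 19 to 23 in the 12th restreaking against wild type (21 as reported), 14 to 24 in the first (20 as reported) and 0 to 3 in the 12th against the first (2 as reported). Leaving out 1 array at a time gave 19 to 22, 18 to 20 and 0 to 3. For the 12th against the first the count was 1 with first-restreaking replicates 3 and 4 alone (RPC31, lower, with RPB11 and RPC34 lost), 3 with replicates 1 and 2 alone (RPA12 added), 3 under quantile normalization (RPA135 added) and 0 with the clones averaged in pairs. Over all genes that comparison had 866 calls as reported, 531 with every probe set in the fit, 338 with clones averaged in pairs and 267 to 921 with 1 array left out.

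Of the gene results under the alternatives, 2102 stayed on their side of the threshold, 62 lost the call, 43 gained one and 1 called difference changed sign: RPA190 in the first restreaking was at 0.037 (adjusted p = 0.403) under quantile normalization. Differences that had not passed changed sign in 57 cases. Several alternatives could not move a gene's difference, so the 2102 results are not all separate checks. Each gene has 1 probe set, so averaging probe sets left its difference as it was. Leaving out an array of the group not compared did so too. Of the calls, 13 of 21 in the 12th, 10 of 20 in the first and 0 of 2 between them held in all 23 alternatives. The share of called genes that were higher moved, over all genes, to 44.1% in the 12th and 44.2% in the first with array medians set equal, and to 43.8% and 42.9% under quantile normalization, from 52.6% and 52.5% as reported. Over the polymerase genes it was 5%, 4.17%, 26.3% and 20%, from 23.8% and 15%.

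With the replicate number as a block the counts were 21, 20 and 2, and over all genes 4185, 4196 and 632. In the first restreaking that block ended the calls of RPA190 (adjusted p = 0.083) and RPC40 (0.0905), and RPC19 and RPC34 passed.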
